A study of Mus musculus with 8 samples.

Results

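The genes described here are those of oxidative phosphorylation, the machinery of the inner mitochondrial membrane, in whole retinas of germ-free (GF) mice. They were chosen by symbol, as the Nduf genes of complex I (NADH dehydrogenase), Sdha to Sdhd of complex II (succinate dehydrogenase), the Uqcr genes of complex III (cytochrome bc1), Cox4 to Cox8 of complex IV (cytochrome c oxidase), the Atp5 genes of complex V (ATP synthase), and the genes for proteins of the mitochondrial genome. Of 55213 symbols in the count tables, 119 matched. Of these, 9 were set aside for a symbol with "-ps" and 6 for fewer than 80 counts summed over 8 libraries, which left 104 members, 91 in the nuclear genome and 13 in the mitochondrial genome. Just inside the minimum stood Cox6a2 with 88 counts and just outside it Ndufa11b with 28. The study asked how a high-fat diet bears on the retinal transcriptome where no gut microbes are present. GF-HFD mice ate a diet with 23% saturated fat and GF-ND mice a normal diet, for 8 weeks in both groups, from 7 weeks of age until the retinas were taken at 15 weeks. All were adult male C57Bl/6 mice kept germ-free and fed ad libitum, and each group holds 4 libraries of 100-bp read pairs, GF-HFD mice 13, 15, 16 and 19, and GF-ND mice 9, 10, 11 and 12. No mouse with microbes was part of the comparison, so the diets were compared in germ-free animals alone.

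Complexes I, III and IV pass electrons from NADH to oxygen and move protons across the inner membrane, complex II feeds in electrons from succinate, and complex V lets the protons flow back and makes ATP. Complex II is built from nuclear genes alone, whereas the other complexes join proteins of both genomes, so their supply depends on transcription in the nucleus and, from a different set of promoters and a dedicated polymerase, in the mitochondrion. In the retina, photoreceptors crowd mitochondria into the inner segment, where ATP drives the ion pumps that sustain the dark current.

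The mitochondrial genes are shown in sequence first, because part of this genome also stands in the nuclear genome, which bears on the values of several of them below. In GENCODE vM21 (build GRCm38), a stretch of 4663 bases on the minus strand, chr1:24611535-24616197, holds annotated copies of 7 mitochondrial members in their order on the mitochondrial genome. Over the aligned bases, the copies of mt-Co2, mt-Atp6, mt-Co3, mt-Nd4l and mt-Nd4 were identical to the mitochondrial gene, that of mt-Nd3 differed at 1 base and that of mt-Co1 at 6 bases. Below are 90 bases at the start of the copy for mt-Co1 (which begins inside the gene, at chrM:6381-6470 against chr1:24616108-24616197), mt-Nd3 (chrM:9459-9548 against chr1:24613030-24613119) and mt-Co2 (chrM:7013-7102 against chr1:24615476-24615565), all read 5′ to 3′ along the gene, with the bases that differ in capitals. They show where the mt-Co1 copy sets in and how little tells the others apart.
mt-Co1: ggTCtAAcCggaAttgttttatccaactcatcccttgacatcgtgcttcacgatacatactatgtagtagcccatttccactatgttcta
Gm29216: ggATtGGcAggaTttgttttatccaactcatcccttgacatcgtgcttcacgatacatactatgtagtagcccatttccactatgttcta
mt-Nd3: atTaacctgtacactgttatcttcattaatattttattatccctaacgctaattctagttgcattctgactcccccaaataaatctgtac
Gm28438: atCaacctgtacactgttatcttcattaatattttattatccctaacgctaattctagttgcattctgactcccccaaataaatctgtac
mt-Co2: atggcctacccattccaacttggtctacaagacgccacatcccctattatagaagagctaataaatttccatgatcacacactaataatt
Gm28661: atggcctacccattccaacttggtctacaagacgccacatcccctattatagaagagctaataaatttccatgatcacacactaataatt
The 6 differences of mt-Co1 all lay within the first bases of its copy, and from there on the aligned letters were the same.

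For the nuclear members, RefSeq (GRCm38.p6) gave a promoter, from 250 bases before to 50 bases after the start site, for 74 of 91. NRF1, GABPA, YY1 and the estrogen-related receptors (ERR) are factors known to act on genes of the respiratory chain. The NRF1 motif core GCGCANGCG stood on either strand in 22 promoters (29.7%), against 7.03% of all 27025 genes with a promoter and 16.8% of the 8160 genes with a mean of at least 10 CPM (the count relative to the depth of the library). The YY1 motif AANATGGCG stood in 11 (14.9%), against 2.76% and 6.64%. The GABPA motif CCGGAAG stood in 19 (25.7%), against 9.93% and 21%, and the ERR motif TCAAGGTCA in 2 (2.7%), Atp5g3 and Sdhd, against 0.466% and 0.257%. A match describes the letters and is not a measured site. Of the members whose diet groups did not overlap (described below), 8 had a promoter. The GABPA motif stood in 0 of these 8, the YY1 motif in 1 (Atp5b) and the ERR motif in 1 (Atp5g3). Against 22 of 74 over all nuclear members, the NRF1 motif stood in 3 of the 8, Sdha, Atp5g3 and Uqcrc1. Their promoters are shown over 100 bases, Sdha at chr13:74350241-74350340 on the minus strand, Atp5g3 at chr2:73911297-73911396 on the minus strand and Uqcrc1 at chr9:108936578-108936677 on the plus strand, with NRF1 and ERR matches in capitals.
Sdha: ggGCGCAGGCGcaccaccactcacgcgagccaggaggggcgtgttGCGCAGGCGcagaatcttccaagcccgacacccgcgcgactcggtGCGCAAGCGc
Atp5g3: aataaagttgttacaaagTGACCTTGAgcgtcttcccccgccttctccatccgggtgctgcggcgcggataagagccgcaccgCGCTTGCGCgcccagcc
Uqcrc1: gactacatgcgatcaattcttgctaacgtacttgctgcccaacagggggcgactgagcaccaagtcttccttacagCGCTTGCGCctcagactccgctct
The Sdha stretch held 3 NRF1 matches, the Uqcrc1 stretch 1 of the 2 in its promoter, and the Atp5g3 stretch 1 NRF1 match and 1 ERR match.

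The libraries held 39258006 to 44357518 counts. The retinal label was checked on 18 rod genes, whose mean log2 CPM was 11.03 to 11.36 in GF-HFD mice and 10.39 to 10.99 in GF-ND mice. Lens genes took 1.21% of counts in GF-HFD mouse 19 and 7.05% in GF-ND mouse 11, and at most 0.169% elsewhere. Rod genes, muscle genes and nuclear-retained RNAs also differed between libraries, and their values are given below. In bulk tissue, fewer cells of a type and less RNA per cell cannot be told apart.

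No member passed the test across all genes. With edgeR's quasi-likelihood test and Benjamini-Hochberg adjustment over 26900 genes, 0 of 104 members had an adjusted p under 0.05 and the smallest adjusted p was 0.649, as 0% of all genes passed. At an unadjusted p under 0.05, 16 nuclear members were higher in GF-HFD mice, against 2.85% of all genes, and 0 were lower, against 4.53%. Of the genes with at least 10 CPM on average, a level that most members reach, 5.16% were higher and 3.54% lower. DESeq2 gave 14 such nuclear members and limma-voom 18, and both gave 0 after adjustment. The share of all genes that DESeq2 or limma-voom called higher was not counted, so their counts have no background beside them. Mitochondrial members numbered 0 in either direction by all these tools.

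The fitted differences were small and mostly of one sign. The fitted log2 fold change (GF-HFD over GF-ND) was above 0 for 83 of 91 nuclear members and 12 of 13 mitochondrial members, against 46.3% of all genes and 60.9% of genes with at least 10 CPM. Its median was 0.19 for nuclear members, a 1.14-fold difference, and 0.09 for mitochondrial members, against −0.03 for all genes and 0.04 for those with at least 10 CPM. Members share libraries, and these medians describe the list and test nothing. By complex, the nuclear median was 0.17 for complex I (44 members), 0.18 for complex II (4), 0.23 for complex III (8), 0.20 for complex IV (18) and 0.16 for complex V (17), so the complexes lay close to each other beside a median standard error (SE) of 0.12 for a single nuclear member. Without GF-ND mouse 12, the lowest in many members, complex I stood at 0.14, complex II at 0.15, complex III at 0.14, complex IV at 0.12 and complex V at 0.11. The 8 nuclear members below 0 were Ndufaf1, Ndufaf6, Ndufaf7, Ndufab1, Ndufb2, Ndufa4l2, Cox6b2 and Atp5l, of which 3 are complex I assembly factors and 2 are tissue isoforms.

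**Figure D1:**
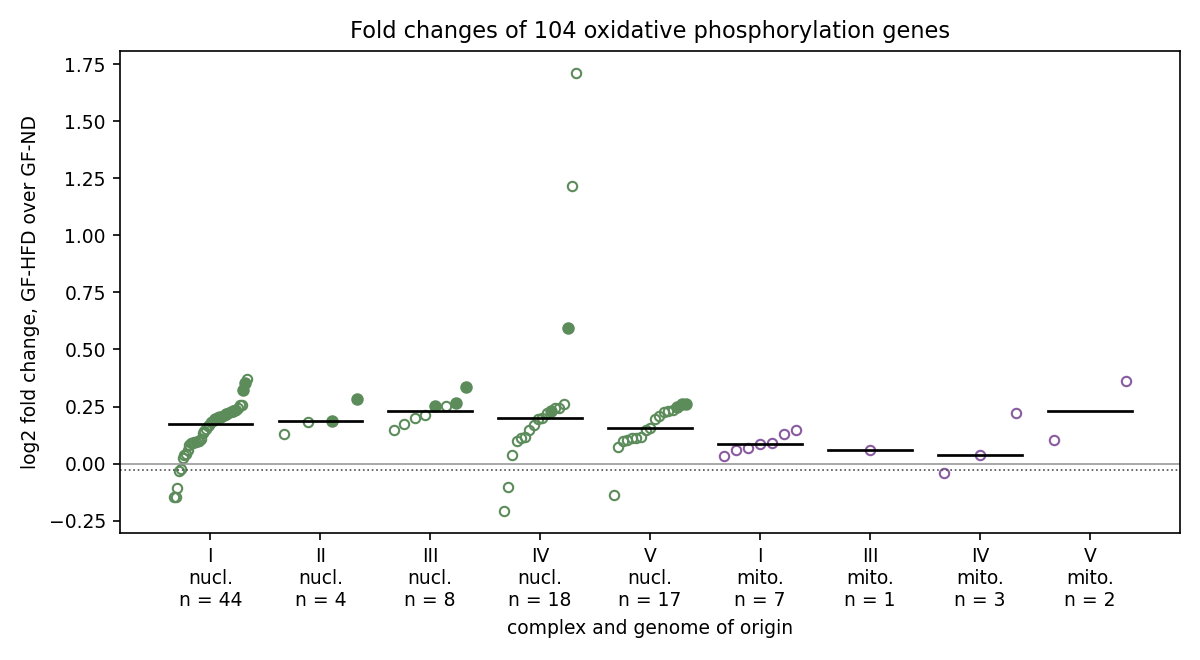
Log2 fold change (GF-HFD over GF-ND, edgeR) of each of the 104 members on the vertical axis, by complex and genome of origin. Filled points had an unadjusted p under 0.05, bars are medians and the dotted line is the median of all genes tested. Most points lie a little above 0, and the 16 filled points are all nuclear and above 0.

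Every GF-HFD mouse was above every GF-ND mouse for 10 nuclear members, against 2.29% of all genes and 4.56% of genes with at least 10 CPM. The reverse order was seen for 0 members, against 2.54% and 1.48%. For a single gene, the two-sided exact permutation test over 70 arrangements of the mice can give no p under 0.0286, and these 10 members reach it by having groups that do not overlap.

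Which mice were high or low was shared by many members. GF-HFD mouse 15 was the highest of all mice in 34 nuclear members, GF-HFD mouse 19 in 25 and GF-ND mouse 11 in 16, whereas GF-ND mouse 12 was the lowest in 58 and GF-ND mouse 10 in 14. The nuclear members together took 0.687, 0.751, 0.707 and 0.76% of counts in GF-HFD mice 13, 15, 16 and 19, and 0.71, 0.644, 0.675 and 0.59% in GF-ND mice 9, 10, 11 and 12. By these shares the groups overlapped through GF-ND mouse 9 alone, which was above GF-HFD mice 13 and 16. With lens genes left out of the totals, GF-ND mouse 11 (0.726%) also lay above GF-HFD mice 13 (0.687%) and 16 (0.708%).

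The mitochondrial members together took a larger share that did not follow the diet. They made up 2.01, 2.88, 2.72 and 2.34% of counts in GF-HFD mice 13, 15, 16 and 19, and 2.22, 1.77, 2.56 and 3.28% in GF-ND mice 9, 10, 11 and 12. These sums rest almost wholly on 7 of the 13 genes. The other 6 had few counts, which are uncertain as levels of mitochondrial RNA (described below). The highest and the lowest of the 8 mice were both in the GF-ND group, mouse 12 and mouse 10. GF-ND mouse 12 thus had the highest mitochondrial share and the lowest nuclear share, a ratio of 5.55, against 2.93 to 3.85 in GF-HFD mice and 2.75 to 3.79 in GF-ND mice 9, 10 and 11.

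**Figure D2:**
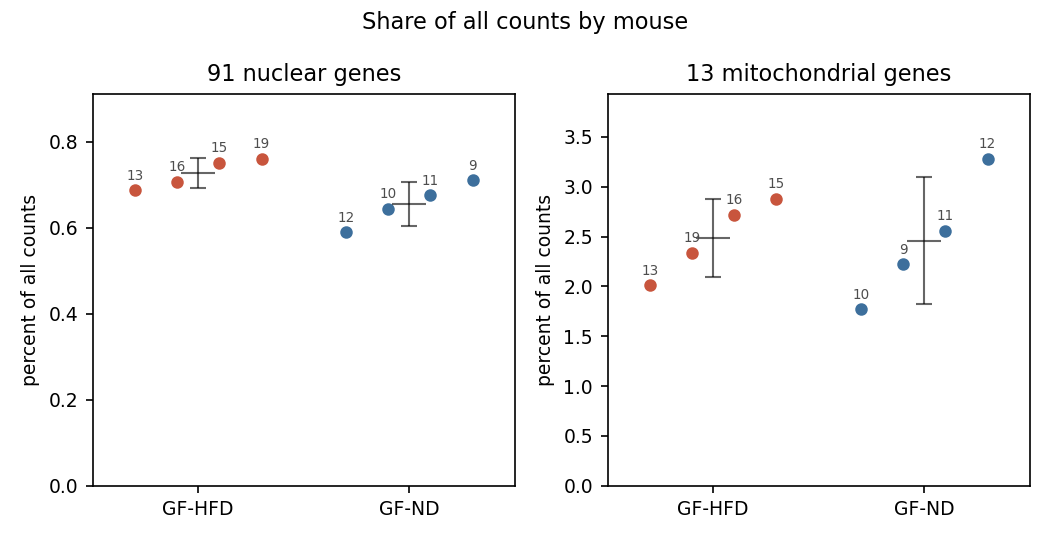
Percent of all counts in the 91 nuclear and 13 mitochondrial members, 1 point per mouse with its number, with mean and SD of 4 mice per group. The mitochondrial share rests almost wholly on 7 of the 13 genes. The nuclear share averaged 0.726 ± 0.0349% in GF-HFD mice and 0.655 ± 0.0509% in GF-ND mice, and the mitochondrial share 2.49 ± 0.391% and 2.46 ± 0.637%. With lens genes left out of the totals, the nuclear share averaged 0.729 ± 0.0382% in GF-HFD mice and 0.668 ± 0.0626% in GF-ND mice.

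Of the nuclear genes of complex I, 39 of 44 were fitted above 0, 6 had an unadjusted p under 0.05, and 4 had groups that did not overlap. Ndufs1, the large iron-sulfur subunit of the arm that takes up electrons from NADH, had 104.6, 116.1, 110.8 and 106.9 CPM in GF-HFD mice, against 93.8, 90.9, 98.1 and 97.8 CPM in GF-ND mice. Every GF-HFD mouse was above every GF-ND mouse, with a log2 fold change of 0.20 (SE 0.07, unadjusted p = 0.0144, adjusted p = 0.649). Its exons overlap Ino80dos and Eef1b2 on the opposite strand. Ndufa10, an accessory subunit of the membrane arm, had 117, 117.5, 119.8 and 108.5 CPM in GF-HFD mice, against 95.3, 102, 102 and 98.3 CPM in GF-ND mice. Its groups were also apart, at a log2 fold change of 0.22 (SE 0.07, unadjusted p = 0.00915), and its exons overlap no other gene. Ndufv3, an accessory subunit beside the NADH site, had 72.7, 71.5, 72.3 and 71.2 CPM in GF-HFD mice, against 58.5, 63.6, 68.5 and 61 CPM in GF-ND mice. The GF-HFD mice lay close together and above all GF-ND mice, at a log2 fold change of 0.19 (SE 0.07, unadjusted p = 0.0232).

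By place in complex I, the median log2 fold change was 0.15 for the 3 core and 0.21 for the 8 accessory subunits of the N module, which oxidizes NADH. It was 0.18 for the 4 core and 0.18 for the 2 accessory subunits of the Q module, which reduces ubiquinone, and 0.18 for the 19 accessory subunits of the membrane arm (0.11 without GF-ND mouse 12). Over all 8 mice the modules therefore lay close together. Without GF-ND mouse 11 the core and accessory medians were 0.22 and 0.27 for the N module. They were then 0.14 and 0.24 for the Q module, and 0.26 for the membrane arm. Ndufb11 (0.32, SE 0.13), Ndufs6 (0.35, SE 0.15) and Ndufs8 (0.23, SE 0.10) had an unadjusted p under 0.05 with overlapping groups, and in Ndufs6 and Ndufb11 it was GF-ND mouse 11 that reached into the GF-HFD range. The 8 Ndufaf genes, which help to assemble complex I and are no part of it, had a median of 0.04 (−0.01 without GF-ND mouse 11 and 0.08 without GF-ND mouse 12) with 5 above 0 and 0 at an unadjusted p under 0.05. One of them, Ndufaf3, had groups apart, with 21.4, 24, 22.8 and 22.3 CPM in GF-HFD mice, against 20.8, 20.7, 19.5 and 16 CPM in GF-ND mice, and an unadjusted p of 0.052. Other complex I assembly factors outside the Nduf names, 8 genes tested, had a median of 0.03 (−0.01 without GF-ND mouse 11) with 5 above 0. The difference between subunits and assembly factors was not tested.

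All 4 genes of complex II, which also serves as an enzyme of the citric acid cycle, were fitted above 0, and 2 had groups apart. Sdhc, a membrane anchor that carries part of the quinone site, had 79.5, 88.2, 80.2 and 82.9 CPM in GF-HFD mice, against 75.4, 64.6, 71.1 and 61.1 CPM in GF-ND mice. The groups did not overlap, the log2 fold change amounted to 0.28 (SE 0.08), and the unadjusted p was the smallest of all members (0.00785, adjusted p = 0.649 by edgeR). Sdha, the flavoprotein that oxidizes succinate, had 359.7, 395.7, 362.1 and 386.6 CPM in GF-HFD mice, against 341.5, 337.4, 334 and 309.4 CPM in GF-ND mice. The 4 GF-ND mice lay below the GF-HFD mice, at a log2 fold change of 0.19 (SE 0.08, unadjusted p = 0.0377). Sdha also had the highest level per length of the complex, 374.5 ± 6.67 TPM (counts per length, scaled to a fixed total) in GF-HFD mice and 338.3 ± 47.3 TPM in GF-ND mice (SD, n = 4 each, as in all values with ±). The iron-sulfur subunit Sdhb (0.18, SE 0.13) and the anchor Sdhd (0.13, SE 0.10) had unadjusted p-values of 0.189 and 0.232.

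All 8 nuclear genes of complex III were fitted above 0. Uqcrc1, a core protein of the matrix side, had 158, 188.4, 169.7 and 161.7 CPM in GF-HFD mice, against 150.9, 148.9, 132.3 and 137.7 CPM in GF-ND mice. Its groups did not overlap, at a log2 fold change of 0.25 (SE 0.08, unadjusted p = 0.0141). Uqcrfs1, the Rieske iron-sulfur protein, had 76.1, 74.2, 82 and 66.7 CPM in GF-HFD mice, against 58, 50.5, 76 and 52.3 CPM in GF-ND mice. Here only GF-ND mouse 11 reached into the GF-HFD range, at a log2 fold change of 0.34 (SE 0.13, unadjusted p = 0.0278). Uqcrc2, the other core protein, had 100.3, 135.5, 116.7 and 123.6 CPM in GF-HFD mice, against 110.5, 91, 104.5 and 89.6 CPM in GF-ND mice, which overlapped through GF-HFD mouse 13 (0.27, SE 0.11, unadjusted p = 0.0342). Uqcrh, the hinge protein, had the highest level per length, 403.3 ± 64.6 TPM in GF-HFD mice and 369 ± 74.2 TPM in GF-ND mice, and groups that overlapped widely (0.17, SE 0.14, unadjusted p = 0.259). Cytochrome c1 (Cyc1), a catalytic subunit whose symbol lies outside the rule, had 92.8, 99, 97.4 and 93.1 CPM in GF-HFD mice, against 87.1, 85.3, 83.1 and 84.9 CPM in GF-ND mice. It too had groups apart, at a log2 fold change of 0.17 (SE 0.06, unadjusted p = 0.0265), while the mobile carrier cytochrome c (Cycs) had overlapping groups at 0.13 (SE 0.09).

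**Figure D3:**
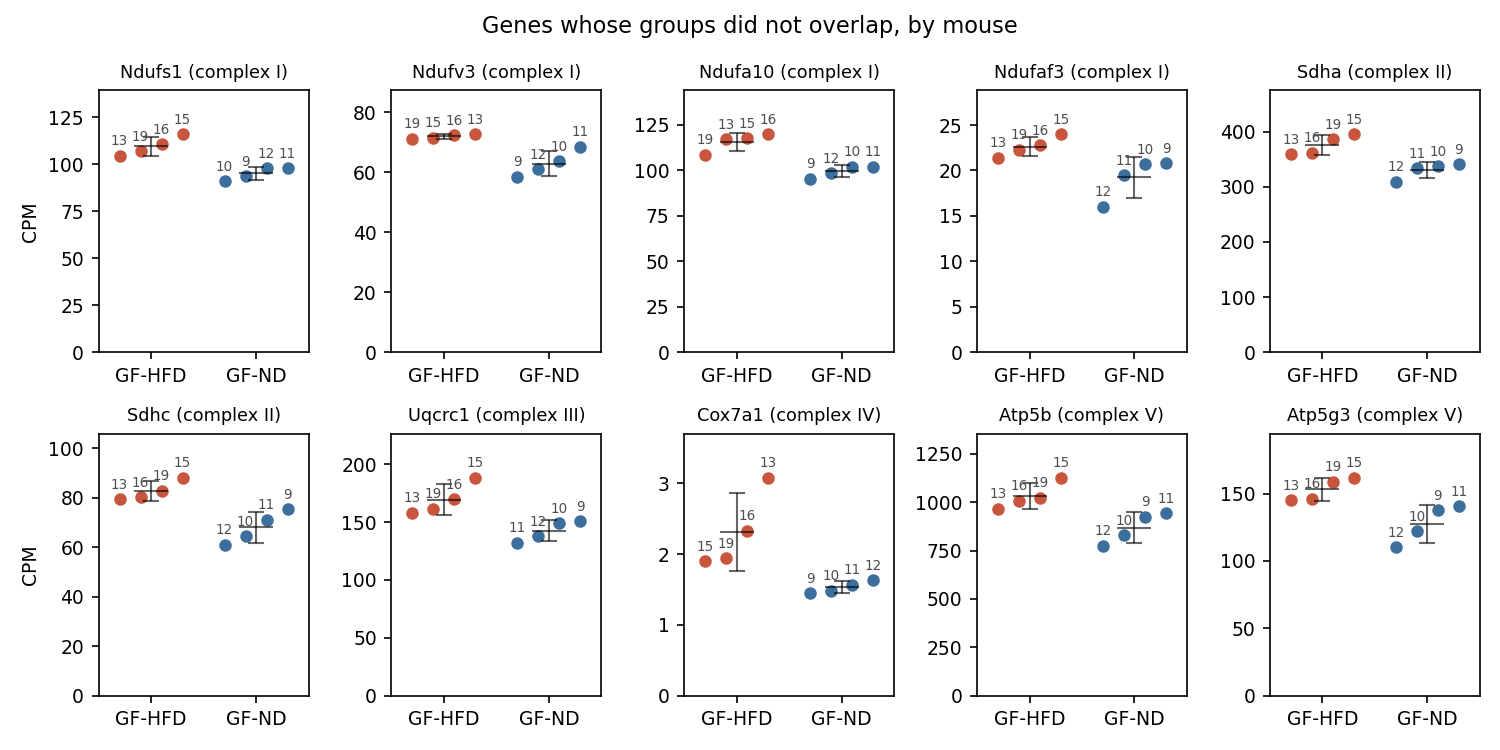
CPM (TMM-scaled) of the 10 members whose diet groups did not overlap, 1 point per mouse with its number and ordered by value within a group, with mean and SD of 4 mice per group and axes starting at 0. In each panel the lowest GF-HFD mouse lies above the highest GF-ND mouse, and apart from Cox7a1 the fitted difference is 1.215-fold (Sdhc) or less.

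In complex IV, the 11 common isoforms were all fitted above 0, with a median of 0.17 (0.10 without GF-ND mouse 12), and 1 had an unadjusted p under 0.05. That was Ndufa4, first assigned to complex I and now known as a subunit of cytochrome c oxidase, with 151.1, 185.7, 159.5 and 180.2 CPM in GF-HFD mice, against 161.5, 147.6, 142.2 and 125.7 CPM in GF-ND mice. GF-ND mouse 9 lay above GF-HFD mice 13 and 16 (fitted log2 difference 0.23, SE 0.10, unadjusted p = 0.0469). Cox8a, the smallest subunit of the common form, had the highest level per length of the nuclear genes of complex IV, 790.2 ± 55 TPM in GF-HFD mice and 668.1 ± 54.3 TPM in GF-ND mice. TPM carry no TMM scaling, and in TMM-scaled CPM its mean was 118.8 ± 4.81 in GF-HFD mice and 100.4 ± 24.6 in GF-ND mice. It had 122.1, 112, 122.4 and 118.7 CPM in GF-HFD mice, against 91.9, 85.8, 137.1 and 86.8 CPM in GF-ND mice. The 137.1 CPM belonged to GF-ND mouse 11, the library richest in lens transcripts, and the other 3 GF-ND mice lay below all GF-HFD mice.

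The tissue isoforms of complex IV replace common subunits in muscle, heart, lung, testis or under low oxygen, and 5 of the 6 were below 6 CPM in every library. Cox7a1, the form of heart and skeletal muscle, had 3.08, 1.9, 2.33 and 1.94 CPM in GF-HFD mice, against 1.45, 1.48, 1.57 and 1.63 CPM in GF-ND mice. Its groups did not overlap, at a log2 fold change of 0.59 (SE 0.22, unadjusted p = 0.0218), and per length it stood at 17.9 ± 4.77 TPM in GF-HFD mice and 12.1 ± 1.57 TPM in GF-ND mice, against 309 ± 37.5 and 282 ± 39.8 TPM for the common Cox7a2. Its highest value belonged to GF-HFD mouse 13, the mouse with the highest mean log2 CPM of a skeletal muscle list (1.98, against −1.21 to −0.50 in the other GF-HFD mice and −1.18 to −0.23 in GF-ND mice). Of the 13 muscle genes tested, 4 were higher and 1 was lower at an unadjusted p under 0.05, against 2.85% and 4.53% of all genes. Of the 4, Myh1, Myh4 and Tnni2 were highest in GF-HFD mouse 13 and Pvalb in GF-HFD mouse 19. For Cox7a1, GF-HFD mice 15, 16 and 19 also lay above all GF-ND mice. Its log2 fold change stayed between 0.43 and 0.68 with any 1 mouse left out.

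Cox6a2, another heart and muscle form with 88 counts in all, just above the minimum of 80, had 1.15, 0.19, 0.0458 and 0.0946 CPM in GF-HFD mice, against 0.241, 0.197, 0.143 and 0.0478 CPM in GF-ND mice. Its one high value was again that of GF-HFD mouse 13. The fitted log2 fold change was 1.21 (SE 0.93), and −0.50 without mouse 13. Cox8b, also a heart and muscle form, had 0.883, 0.332, 3.32 and 2.55 CPM in GF-HFD mice, against 0.241, 0.0985, 1.72 and 0.0957 CPM in GF-ND mice. GF-ND mouse 11 lay above GF-HFD mice 13 and 15, and the fitted 1.71 (SE 0.95, unadjusted p = 0.102) ranged between 1.22 and 3.58 when 1 mouse was left out. The mean log2 CPM of a list of pigment epithelium markers, which was highest in these same mice, was 5.39 in GF-HFD mouse 16, 5.17 in GF-HFD mouse 19 and 5.57 in GF-ND mouse 11, against 0.87 and 3.13 in the remaining GF-HFD mice and 1.88 to 2.23 among the remaining GF-ND mice. Fibroblast genes behaved likewise, at 3.02 in GF-HFD mouse 16, 3.46 in GF-HFD mouse 19 and 2.28 in GF-ND mouse 11, against 0.21 and 1.28 in the remaining GF-HFD mice and 0.18 to 1.58 among the remaining GF-ND mice. The part of these tissues in the isoforms' values was not tested.

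Ndufa4l2, a paralog of Ndufa4 induced by low oxygen, had 0.907, 1.42, 0.847 and 3.26 CPM in GF-HFD mice, against 0.506, 0.566, 4.91 and 0.933 CPM in GF-ND mice. The highest mouse of each group was the one with lens transcripts, and the fitted difference of −0.10 (SE 0.74) was 0.66 without both of them. Its exons overlap Shmt2 on the opposite strand. Cox4i2, the form of lung and of low oxygen, had 16.9, 20.7, 15.5 and 17.5 CPM in GF-HFD mice, against 16, 13, 16.3 and 14.2 CPM in GF-ND mice. It was the best represented of these forms, at 91.7 ± 9.18 TPM in GF-HFD mice and 79.3 ± 9.05 TPM in GF-ND mice, against 459.5 ± 36.8 and 428.2 ± 64.7 TPM for the common Cox4i1, with groups that overlapped (0.24, SE 0.13). Cox6b2, the form of the testis, had 3.03, 3.47, 5.33 and 4.85 CPM in GF-HFD mice, against 4.7, 5.61, 5.05 and 3.9 CPM in GF-ND mice (−0.21, SE 0.22).

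**Figure D4:**
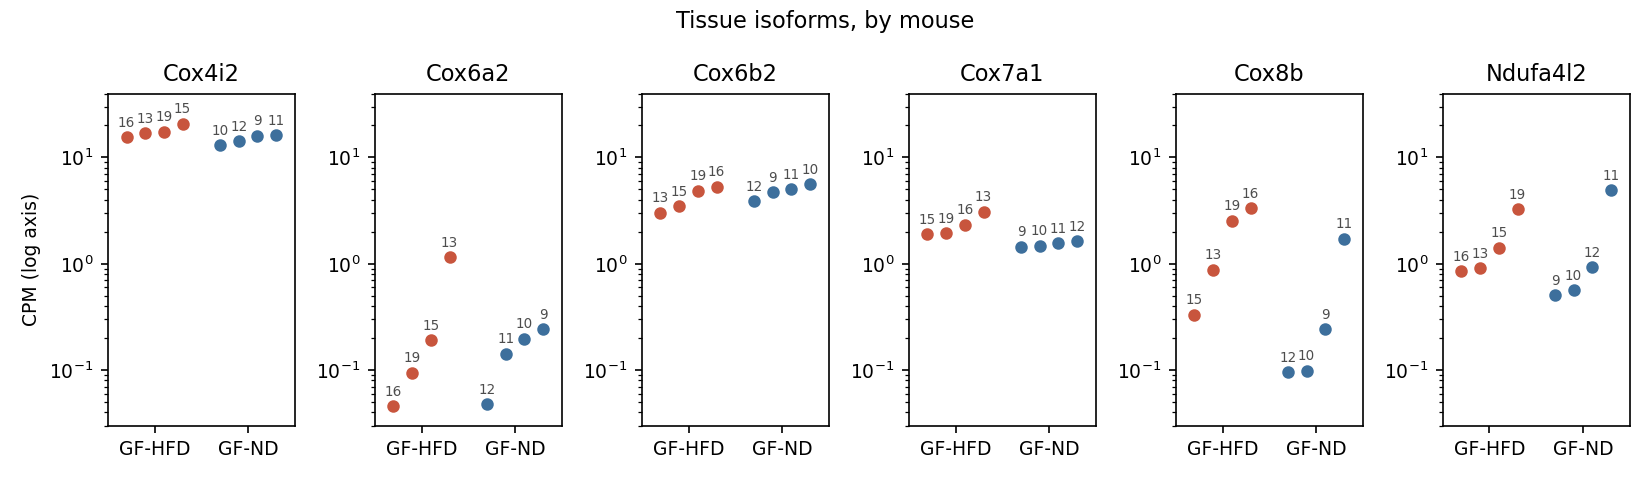
CPM on a log axis for 6 tissue isoforms of complex IV, 1 point per mouse with its number and ordered by value within a group. Single mice stand high in Cox6a2 (GF-HFD mouse 13) and Ndufa4l2 (GF-HFD mouse 19 and GF-ND mouse 11), while the groups are apart in Cox7a1.

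In complex V, 16 of 17 nuclear members were fitted above 0, and the 3 with an unadjusted p under 0.05 were Atp5g3, Atp5b and Atp5a1. Atp5b, the catalytic beta subunit of the F1 head, had the highest level per length of all nuclear members, 999.4 ± 38.5 TPM in GF-HFD mice and 860.2 ± 98.5 TPM in GF-ND mice. It had 965.9, 1126.7, 1007.1 and 1023.3 CPM in GF-HFD mice, against 924.5, 828.2, 942.8 and 775.8 CPM in GF-ND mice. The groups were apart, at a log2 fold change of 0.25 (SE 0.10, unadjusted p = 0.0316). Atp5a1, the alpha subunit beside it, had 573.2, 696.5, 600.3 and 642.7 CPM in GF-HFD mice, against 560.1, 512.3, 579.6 and 445.8 CPM in GF-ND mice. GF-ND mouse 11 lay just above GF-HFD mouse 13, at 0.26 (SE 0.11, unadjusted p = 0.0368), and its exons overlap Haus1 on the opposite strand.

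The 3 Atp5g genes encode the same mature c subunit of the rotating ring and differ in the peptide that is cut off on import. Of these, Atp5g3 had 145.2, 161.9, 146.3 and 158.9 CPM in GF-HFD mice, against 137.5, 122.3, 140.7 and 110.4 CPM in GF-ND mice, with groups apart at a log2 fold change of 0.26 (SE 0.09, unadjusted p = 0.0189). Atp5g1 had 50.5, 68, 55.5 and 61.5 CPM in GF-HFD mice, against 56.2, 48.4, 51.7 and 47.5 CPM in GF-ND mice (0.21, SE 0.10, unadjusted p = 0.0731). Atp5g2 had 34.8, 38.9, 34.1 and 38.3 CPM in GF-HFD mice, against 38, 33.3, 37.1 and 26.8 CPM in GF-ND mice (0.11, SE 0.12). The last 2 had overlapping groups, and 34.7% of the 100-base windows of Atp5g2 also stood in another gene, so its counts are uncertain. Per length, Atp5g3 had the highest level of these genes, 288.3 ± 7.62 TPM in GF-HFD mice and 245.7 ± 29.8 TPM in GF-ND mice, against 89.5 ± 3.53 and 84.7 ± 14.2 TPM for Atp5g2 and 49.2 ± 4.82 and 43.8 ± 6.56 TPM for Atp5g1. By place in the enzyme, the median log2 fold change was 0.23 for the 5 genes of the F1 head and central stalk, 0.21 for the c ring, 0.13 for the 4 of the peripheral stalk (0.08 without GF-ND mouse 12, 0.21 without GF-ND mouse 11) and 0.10 for the 5 accessory membrane genes (0.02 and 0.17), among them Atp5l at −0.14 (SE 0.12).

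Windows of 100 bases, the length of 1 read, stood unchanged in another annotated gene for 20 of the 91 nuclear members, and 32 overlapped the exons of another gene, for which the sources used here state neither a strand setting nor the handling of reads that match several places. The 71 nuclear members with no shared window held all 16 with an unadjusted p under 0.05 and all 10 with groups apart, with a median log2 fold change of 0.20. The 59 with no exon overlap held 11 of the 16 and 8 of the 10, with a median of 0.19. The pseudogene symbol Ndufb1-ps, set aside by the rule although it carries the name of a complex I subunit, had 11942 counts and a log2 fold change of 0.11 (SE 0.15).

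The 13 mitochondrial members fell into a high and a low set by level. The high set had 7 members above 100 CPM, mt-Co1, mt-Cytb, mt-Nd1, mt-Nd2, mt-Nd4, mt-Nd5 and mt-Nd6, and the low set 6 under 20 CPM, mt-Co2, mt-Co3, mt-Atp6, mt-Atp8, mt-Nd3 and mt-Nd4l. The genome is transcribed as long precursors that are then cut into single RNAs, yet per length the highest gene of complex IV, mt-Co1, stood at 22393 ± 4288 TPM in GF-HFD mice and 22347 ± 7038 TPM in GF-ND mice. Its neighbour mt-Co2, a core subunit of the same enzyme, stood at 35.9 ± 6.78 TPM in GF-HFD mice and 38 ± 7.64 TPM in GF-ND mice. Apart from mt-Atp8, the low set matched the copied stretch on chromosome 1. Of the 100-base windows, 99.5% of mt-Co2, 99.5% of mt-Atp6, 99.9% of mt-Co3, 97.6% of mt-Nd3 and 98.5% of mt-Nd4l stood unchanged in a copy there. In the high set the share found in any other gene was 60.8% for mt-Nd4, 30.8% for mt-Co1 and 3.19% for mt-Nd2 (in a gene on chromosome 2). It was 0% for mt-Nd1, mt-Nd5, mt-Nd6 and mt-Cytb. For mt-Co1 the shared windows lay in 2 genes, with 380 of the 446 in the copy on chromosome 1. mt-Atp8 has no annotated copy, and 0% of its windows stood in another gene. It lies between mt-Co2 and mt-Atp6, whose copies are 233 bases apart on chromosome 1 and whose originals are 230 bases apart. The bases between those copies were not read. mt-Atp8 also overlaps mt-Atp6 on the same strand. The reason for its low counts was not tested.

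**Figure D5:**
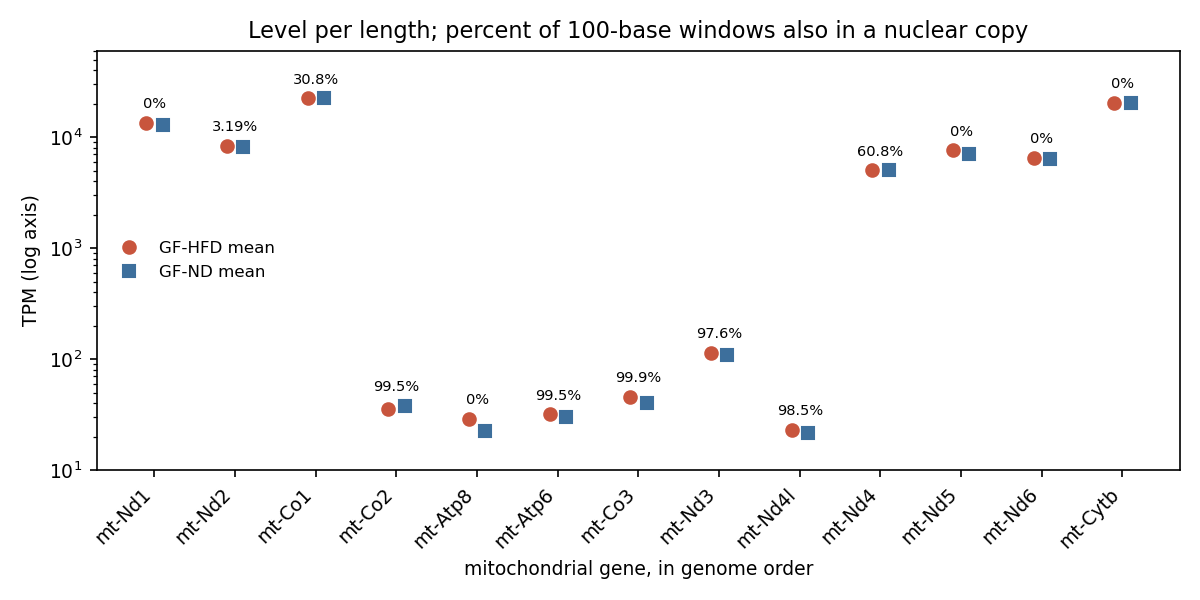
Mean TPM (log axis) of the 13 mitochondrial members in genome order, in GF-HFD and GF-ND mice, with the percent of 100-base windows that also stand in another annotated gene above each pair. Levels are 5004 TPM or more for genes with a share of 60.8% or less, mt-Atp8 excepted, and 22 to 114 TPM for the others.

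The copies themselves had few counts, 202 to 1984 summed over the 8 libraries for the 7 on chromosome 1. The copy of mt-Co2, for example, had 1037, against 2043 for mt-Co2 itself and 2803993 for mt-Co1. Counts of the low set are therefore uncertain as levels of mitochondrial RNA, and the part of shared reads in them was not tested. As mt-Nd5 and mt-Nd6 overlap on opposite strands, as do many nuclear pairs, their counts there cannot be told apart without strand.

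Within the high set no gene separated the diets. mt-Nd1, a core subunit of complex I at the quinone site, had 2575.5, 3764.5, 3192.7 and 2963.9 CPM in GF-HFD mice, against 2706.2, 2144, 3535.5 and 3376.2 CPM in GF-ND mice (fitted log2 difference 0.09, SE 0.18). mt-Nd5, at the far end of its proton-pumping arm, had 2808.9, 4058.1, 3618.8 and 3094 CPM in GF-HFD mice, against 2658, 2007.6, 3572.2 and 4182.7 CPM in GF-ND mice (0.13, SE 0.22). GF-ND mouse 10 was the lowest mouse in both genes, and the GF-HFD mice lay inside or near the GF-ND range. mt-Cytb, which holds both quinone sites of complex III, had 4382.4, 6844.7, 6185.8 and 5404.4 CPM in GF-HFD mice, against 4971.3, 4048.6, 5690.4 and 7209 CPM in GF-ND mice (0.06, SE 0.20). mt-Co1, the catalytic subunit of complex IV, had 6338.9, 10284.9, 9424.8 and 7699.9 CPM in GF-HFD mice, against 6995.3, 5789.9, 8823 and 11300.8 CPM in GF-ND mice (0.04, SE 0.22). For both, all GF-HFD mice lay between the lowest and the highest GF-ND mouse. The other proton-pumping subunits of complex I in the high set gave 0.06 (SE 0.18) for mt-Nd2, 0.03 (SE 0.19) for mt-Nd4 and 0.07 (SE 0.18) for mt-Nd6, which is encoded on the opposite strand. The smallest unadjusted p in this set was 0.569, and an SE near 0.19 leaves the nuclear median of 0.19 about 1 SE from 0.

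In the low set, mt-Atp8 of complex V, with 430 counts in all, had 1.22, 1.42, 1.28 and 1.82 CPM in GF-HFD mice, against 1.06, 0.665, 1.55 and 1.2 CPM in GF-ND mice (0.36, SE 0.29, unadjusted p = 0.244). mt-Co3 of complex IV had 6.57, 9.02, 9.16 and 10.2 CPM in GF-HFD mice, against 8.34, 6.85, 8.53 and 6.27 CPM in GF-ND mice (0.22, SE 0.17). Both had overlapping groups. The remaining genes ranged between −0.04 (SE 0.19) for mt-Co2, the only mitochondrial member below 0, and 0.15 (SE 0.21) for mt-Nd4l, with mt-Nd3 at 0.09 (SE 0.16) and mt-Atp6 at 0.10 (SE 0.17).

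The genes that keep or build this machinery were less uniform. Of the 23 genes for mitochondrial DNA upkeep and transcription, 7 were fitted above 0, 0 had an unadjusted p under 0.05, and the median log2 fold change was −0.08 (−0.16 without GF-ND mouse 11). Tfam, which packages and transcribes mitochondrial DNA, gave 0.06 (SE 0.11), the RNA polymerase Polrmt −0.02 (SE 0.15) and the DNA polymerase Polg −0.21 (SE 0.12). Of the 34 assembly factors of complexes II to V, 23 were above 0, with a median of 0.09, and 2 were higher at an unadjusted p under 0.05. These were Sdhaf4, which aids flavinylated Sdha, with 14.2, 18.4, 15.3 and 17.6 CPM in GF-HFD mice, against 13.2, 11.6, 12.7 and 12.7 CPM in GF-ND mice (0.38, SE 0.12, unadjusted p = 0.00794), and Sco1, which delivers copper to mt-Co2, with 19, 18.5, 17.1 and 16.9 CPM in GF-HFD mice, against 14.2, 14.6, 15.9 and 14.2 CPM in GF-ND mice (0.28, SE 0.10, unadjusted p = 0.016). Both had groups apart.

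Of the 12 nuclear regulators of the respiratory chain, 9 were above 0 with a median of 0.05 (−0.01 without GF-ND mouse 11). The coactivator Ppargc1a gave 0.15 (SE 0.09) and the factor Nrf1 0.02 (SE 0.09). Perm1, a muscle-enriched regulator of the same genes, had 15.5, 16.4, 15 and 13.5 CPM in GF-HFD mice, against 19.5, 29.5, 14.2 and 23.3 CPM in GF-ND mice, and was the 1 with an unadjusted p under 0.05 (−0.52, SE 0.20, unadjusted p = 0.0244), with GF-ND mouse 11 inside the GF-HFD range. Neighbouring pathways of the mitochondrion lay nearer to the nuclear members. Of the 13 citric acid cycle genes, 11 were above 0 (median 0.14), and 2 had an unadjusted p under 0.05, among them the fumarase gene Fh1 (0.25, SE 0.10). Of the 11 genes for ATP, phosphate and anion carriers, porins and mitochondrial creatine kinases, 9 were above 0 (median 0.18). These included the adenine nucleotide carrier Slc25a5 (0.26, SE 0.10) and the porin Vdac2 (0.18, SE 0.08), both with an unadjusted p under 0.05.

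Other transcripts moved between the same libraries. All 18 rod genes were fitted above 0, with a median log2 fold change of 0.32 and 4 at an unadjusted p under 0.05, and their mean log2 CPM was 11.10, 11.36, 11.12 and 11.03 in GF-HFD mice 13, 15, 16 and 19, against 10.96, 10.99, 10.39 and 10.94 in GF-ND mice 9, 10, 11 and 12. Rods were highest in GF-HFD mouse 15, as were 34 nuclear members. They were lowest in GF-ND mouse 11, where 16 nuclear members were at their highest. GF-ND mouse 12, where 58 nuclear members were lowest, stood at 10.94 for rods. The rod means of the diet groups did not overlap, and 6 of the 18 rod genes had groups apart, against 2.29% of all genes. The rod median was 0.20 without GF-ND mouse 11. Of the 11 cone genes tested, 8 were above 0 with a median of 0.19 (0.04 without GF-ND mouse 11). Among the cone genes, 1 was higher at an unadjusted p under 0.05 and 0 had groups apart. Of the 18 microglial genes, 15 were above 0 with a median of 0.28 and 3 at an unadjusted p under 0.05, and their mean log2 CPM was 1.08, 1.25, 1.43 and 1.69 in GF-HFD mice 13, 15, 16 and 19, against 1.17, 1.11, 1.29 and 0.57 in GF-ND mice 9, 10, 11 and 12. Of the 10 pericyte genes, 9 were above 0 with a median of 0.37 and 0 at an unadjusted p under 0.05, at 2.20 to 3.01 in GF-HFD mice and 2.11 to 2.73 in GF-ND mice. Microglial genes, like most nuclear members, were lowest in GF-ND mouse 12. Of 6 long RNAs known to stay in the nucleus (Malat1, Neat1, Meg3, Miat, Snhg11 and Kcnq1ot1), 0 were above 0 and 4 were lower at an unadjusted p under 0.05, with a median of −0.75. Their mean log2 CPM was 6.82 to 7.04 in GF-HFD mice and 7.35 to 7.93 in GF-ND mice, with no overlap. The part of rods, cones, microglia and pericytes, of nuclear against cytoplasmic RNA and of lens transcripts in the differences of the members was not tested.

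Single mice decided how many members had a small p. Without GF-ND mouse 11, whose lens share was 7.05%, 51 nuclear members were higher at an unadjusted p under 0.05, against 12.1% of all genes. At an adjusted p under 0.05 by edgeR with Benjamini-Hochberg adjustment, 5 members were higher, against 0.232% of all genes higher at that limit. These were Cox8a (fitted log2 difference 0.44, adjusted p = 0.0241), Uqcrfs1 (0.48, 0.0324), Cox5b (0.33, 0.0436), Cox6a1 (0.36, 0.044) and Cox8b (3.58, 0.0483), 4 of them genes of complex IV. Without GF-ND mouse 11 and GF-HFD mouse 19 together, 30 nuclear members were higher at an unadjusted p under 0.05, against 9.51% of all genes. Uqcrfs1 alone passed after adjustment (0.53, adjusted p = 0.046 by edgeR), against 0.0233% of all genes that passed as higher. Without GF-ND mouse 12, in which the nuclear share was lowest, 7 nuclear members were higher, against 2.62% of all genes, and all 7 were among the 16. The count was 19 without GF-ND mouse 9, against 2.57%, and 10 without GF-ND mouse 10, against 2.02%, of which 11 and 8 were among the 16. It was 18 without GF-HFD mouse 13, against 2.77%, 6 without mouse 15, against 1.63%, 9 without mouse 16, against 1.73%, and 7 without mouse 19, against 2%, of which 12, 6, 8 and 7 were among the 16. The nuclear median stayed between 0.14 and 0.24 and the mitochondrial median between −0.04 and 0.19 when any 1 mouse was left out.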

How the data were processed

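Whole-retina RNA of 4 GF-HFD and 4 GF-ND mice was sequenced as 100-bp read pairs, 1 library per mouse. Per the labels and the study's methods, reads were mapped to GRCm38 (mm10) by STAR 2.4.2, and featureCounts (Subread 1.4.6-p1) assigned them to genes. The authors deposited the raw counts, unscaled and unfiltered, under gene symbols. Strand setting and the handling of reads that match several places are not given in the sources used here. Groups were taken from the labels. The p-values set the difference between the groups against the spread between these libraries, 1 per mouse.

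The 26900 genes that had 10 or more counts in total were TMM-scaled and compared with edgeR 4.0.16 in R 4.3.3 (quasi-likelihood test, GF-HFD against GF-ND, Benjamini-Hochberg adjustment over all genes tested). Alternatives were RLE factors, library totals, mitochondrial genes removed before scaling, other filters, DESeq2 1.42.0, limma-voom (limma 3.58.1) and mice left out. Log2 CPM used a prior count of 2. TPM were computed from counts and summed exon lengths of GENCODE vM21, which also gave positions, overlaps and shared windows, while the study's methods name vM23 for the counting. They were scaled to each library's own total without TMM factors, so the lens share of GF-ND mouse 11 enters that total. In vM21, 103 members were found by symbol and Atp5md under a synonym. Shared windows were exact 100-base matches between transcripts of different genes. The edgeR, limma-voom and DESeq2 steps were tested on simulated data.

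Members and companion lists were chosen with earlier results of these data known. Genes named with values are all mitochondrial members, per complex the 3 nuclear members with the smallest unadjusted p in each direction if under 0.05, the one with the highest level per length, the tissue isoforms of complex IV and the c-subunit genes. Further genes (Ndufaf3, Ndufb11, Ndufs6, Ndufs8 and the companions named) were singled out after their values were seen. A few genes to which these rules apply are not reported here.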

Additional observations from a re-analysis of the deposited data

Results flagged for a closer look

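In 4 of 72 sets of 4 mice examined (each of the 36 named genes in each diet group), 1 mouse stood apart from the other 3 by more than Dixon's 95% limit, and chance alone flags about 1 set in 20. Cox6a2 had 1.15 CPM in GF-HFD mouse 13, against 0.0458 to 0.19 CPM in the other GF-HFD mice. In the lens-rich GF-ND mouse 11, Cox8a had 137.1 CPM (85.8 to 91.9 CPM in the other GF-ND mice), Cox8b 1.72 CPM (0.0957 to 0.241 CPM) and Ndufa4l2 4.91 CPM (0.506 to 0.933 CPM).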

How the results depend on the processing

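No paired analysis was possible because the diet groups share no replicate numbers. Over 17 alternatives, the nuclear median log2 fold change was above 0 in all, as was that of each complex. The 16 nuclear members at an unadjusted p under 0.05 became 10 with library totals (1.55% of all genes), 6 of 84 with the filter of 10 CPM in at least 4 libraries (2.09%) and 30 without both lens-rich libraries, and between 6 and 51 with 1 mouse left out. All 16 were also found without GF-ND mouse 11, and 6, a subset of the 16, without GF-HFD mouse 15. Members at an adjusted p under 0.05 numbered 0 to 5 with 1 mouse left out and 1 without both lens-rich libraries. The 10 members with groups apart became 9 with library totals (1.38% of all genes), 8 with the 10 CPM filter (1.81%), 10 to 29 with 1 mouse left out (9.67% of all genes without GF-ND mouse 11) and 29 without both lens-rich libraries, where 12.1% of all genes were apart in that direction. Members apart in the lower direction numbered 0 to 1 with 1 mouse left out (Ndufab1 without GF-HFD mouse 16, against 4.07% of all genes) and 1 without both lens-rich libraries (Ndufb2, against 12.7%).

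Of the 36 named genes, 12 changed sign under at least 1 alternative, 10 of them mitochondrial. Counted gene by gene over all alternatives, 33 values had a changed sign. With library totals, mt-Co1 gave −0.0106 and mt-Nd4 −0.0096, and with the 10 CPM filter mt-Co1 gave −0.0235, mt-Nd4 −0.0246 and mt-Cytb −0.0020. With 1 mouse left out, the range was −0.0441 to 0.1897 for mt-Nd1, −0.0904 to 0.1624 for mt-Nd2, −0.11 to 0.23 for mt-Co1, −0.1371 to 0.0881 for mt-Co2, −0.0014 to 0.19 for mt-Atp6, −0.0041 to 0.19 for mt-Nd3, −0.11 to 0.19 for mt-Nd4, −0.0389 to 0.3061 for mt-Nd5, −0.0688 to 0.2045 for mt-Nd6, −0.0698 to 0.2182 for mt-Cytb, −0.50 to 1.58 for Cox6a2 and −0.71 to 1.27 for Ndufa4l2. Ndufa4l2 also gave 0.34 with limma-voom and 0.66 without both lens-rich libraries. The cause of these changes was not tested.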
